A study of Mus musculus with 72 samples.

Results

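The 4 array probes described here read Acta2, Lpxn, Cbfa2t3 and Ttc30b in mice with abdominal sepsis that were given mesenchymal stem cells or saline. They are ILMN_2923445 for Acta2, ILMN_1230587 for Lpxn, ILMN_1216136 for Cbfa2t3 and ILMN_1247043 for Ttc30b, out of 45255 probes with a complete set of values. They were chosen from measured values, among the 22504 probes whose row of the deposited table follows its header. The ranking was among 129 probes that passed the threshold given below and whose arms did not overlap. Among these, averaged over liver, lung, kidney and heart, the Acta2 and Lpxn probes had the largest falls in septic stem cell against septic saline recipients. The Cbfa2t3 and Ttc30b probes had the largest rises between the same arms. The comparison of those arms in those 4 organs is therefore given below as a description, with no test.

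The mice were female C57Bl/6J animals in 3 arms, and their organs were taken at 28 hours. Sham mice had a sham operation and then saline. CLP mice had the cecum ligated and perforated, which spills gut bacteria into the abdomen and models sepsis, and then saline. MSC mice had the same gut injury and received 250000 cultured mesenchymal stem cells, a type of stromal cell, from male C57Bl/6J mice. The cells were expanded from a frozen vial, used at passages 8 to 11 and, like the saline, infused in 100 µL through a cannula 6 hours after surgery. None of the groups received stem cells without the gut injury. RNA of each organ was hybridised to Illumina bead arrays. Every arm holds 5 numbered mice, all of which gave liver, lung, kidney and heart, and 4 spleens under labels of their own. The design text speaks of 4 animals per group. The stated question was which expression changes go with less inflammation in injured mice given the cells.

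Acta2 encodes smooth muscle alpha actin, the contractile actin of vessel walls, airways and myofibroblasts. Its promoter is known for CArG boxes, the binding motif of serum response factor. Lpxn encodes leupaxin, an adaptor of the paxillin family that sits at adhesion sites and is made mainly by blood cells. Cbfa2t3, also called ETO2 or MTG16, encodes a corepressor that works with the SCL transcription factor complex in blood stem cells, red cell precursors and other lineages. Ttc30b encodes a tetratricopeptide protein of the IFT-B complex, the train that carries cargo up the shaft of the cilium.

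In the GRCm38.p6 annotation of RefSeq, Acta2 lies at chr19:34240336-34255585 and Lpxn at chr19:12795887-12833813. Cbfa2t3 lies at chr8:122625136-122699332 and Ttc30b at chr2:75935849-75938462. All 4 are protein-coding genes. The Acta2 promoter is printed because smooth muscle genes share the CArG motif and other actin probes matter below. The window runs from 250 bases before to 50 bases after the annotated start, on the minus strand, at chr19:34255324-34255623, in RefSeq's sequence. Capitals mark each match to CCNNNNNNGG in which at least 5 of the 6 middle bases are A or T, a pattern that reads the same on both strands.
Acta2: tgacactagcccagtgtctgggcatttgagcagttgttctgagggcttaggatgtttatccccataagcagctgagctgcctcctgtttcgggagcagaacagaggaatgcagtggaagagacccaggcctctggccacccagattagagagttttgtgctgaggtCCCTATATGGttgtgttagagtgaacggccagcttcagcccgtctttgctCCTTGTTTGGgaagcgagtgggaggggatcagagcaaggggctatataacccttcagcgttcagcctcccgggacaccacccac
The matches, CCCTATATGG and CCTTGTTTGG, begin 84 and 34 bases before the annotated start and do not overlap. Of 32851 promoter windows of 300 bases, 9.98% held at least 1 match and 0.822% held at least 2. The windows of Lpxn and Cbfa2t3 held none, and 3 of the 4 genes had a window in the table.

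Values are log2 intensities as deposited, so 1 unit is a doubling. The 60 arrays of liver, lung, kidney and heart share 1 scale, while the 12 spleen arrays have a scale of their own. A probe was tested where it exceeded 6 log2 in at least 5 arrays of the organ, or 4 of the spleen, and a change was called at a Benjamini-Hochberg adjusted p below 0.05 over all probes tested by limma. Of 15 markers of liver, lung, kidney and heart, all 15 were higher in every array of their own organ than in any other of the 60. The margin was small for Scgb1a1, at 13.44 outside the lung against a lowest lung value of 13.81. In hearts the mean of the lung markers was 4.57 to 6.64 in sham, 4.67 to 7.84 in CLP and 3.97 to 6.32 in MSC mice. Its part in the heart values was not tested. The spleen was not checked in this way. Heart arrays differed in lymphocyte markers. The mean of the T cell genes Cd3e and Cd3d was 14.91 in sham mouse 78, 10.04 in sham mouse 77, 11.28 in CLP mouse 107 and 9.64 in MSC mouse 61, against 7.35 to 9.01 in the other hearts. The mean of the B cell genes Cd79b, Cr2 and Cd22 was 9.95 in CLP mouse 107 and 9.44 in MSC mouse 61. It was 9.34 in CLP mouse 37, against 7.06 to 8.76 in the other hearts. Results in heart are therefore also given without these 5 arrays, a repeat chosen after seeing the data, in which CLP against sham was called for 28.0% of probes and MSC against sham for 3.24%. In these bulk samples, fewer cells of a type and less RNA per cell cannot be told apart.

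Relative to CLP mice, MSC mice had lower Acta2, at -0.86 ± 0.15 (log2 difference of the 4-organ means, ± SE, 5 mice per arm), and lower Lpxn, at -0.67 ± 0.14. The 2 differences are 1.81-fold and 1.60-fold. MSC mice had higher Cbfa2t3 by 0.85 ± 0.15 and higher Ttc30b by 0.85 ± 0.19. These values chose the probes. Of the 6826 probes tested on this mean 12.7% were called, and 129 called probes had arms that did not overlap. The choice was narrow. Fmo5, a flavin monooxygenase, was just outside at 0.85, and Supt3 followed at 0.78, while Nop2 and Ddx31 were just outside in the other direction at -0.67 and -0.65.

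Sham mice did not enter the choice, so they place the MSC arm. In 12 of 16 pairs of a probe and an organ, CLP differed from sham past the threshold, and in 2 of 16 pairs MSC differed from sham, both for Acta2. Over all probes tested, CLP against sham was called for 43.8% in liver, 32.4% in lung, 41.0% in kidney and 17.5% in heart. MSC against sham was called for 20.3% in liver, 9.11% in lung, 6.54% in kidney and 2.72% in heart. These contrasts share the CLP or the MSC arrays with the comparison that chose the probes, so that their sizes carry the choice. The MSC mean lay between sham and CLP in 8 pairs, beyond sham on the side away from CLP in 6, and beyond CLP on the side away from sham in 2. The last 2 were Acta2 in liver and in lung.

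**Figure D1:**
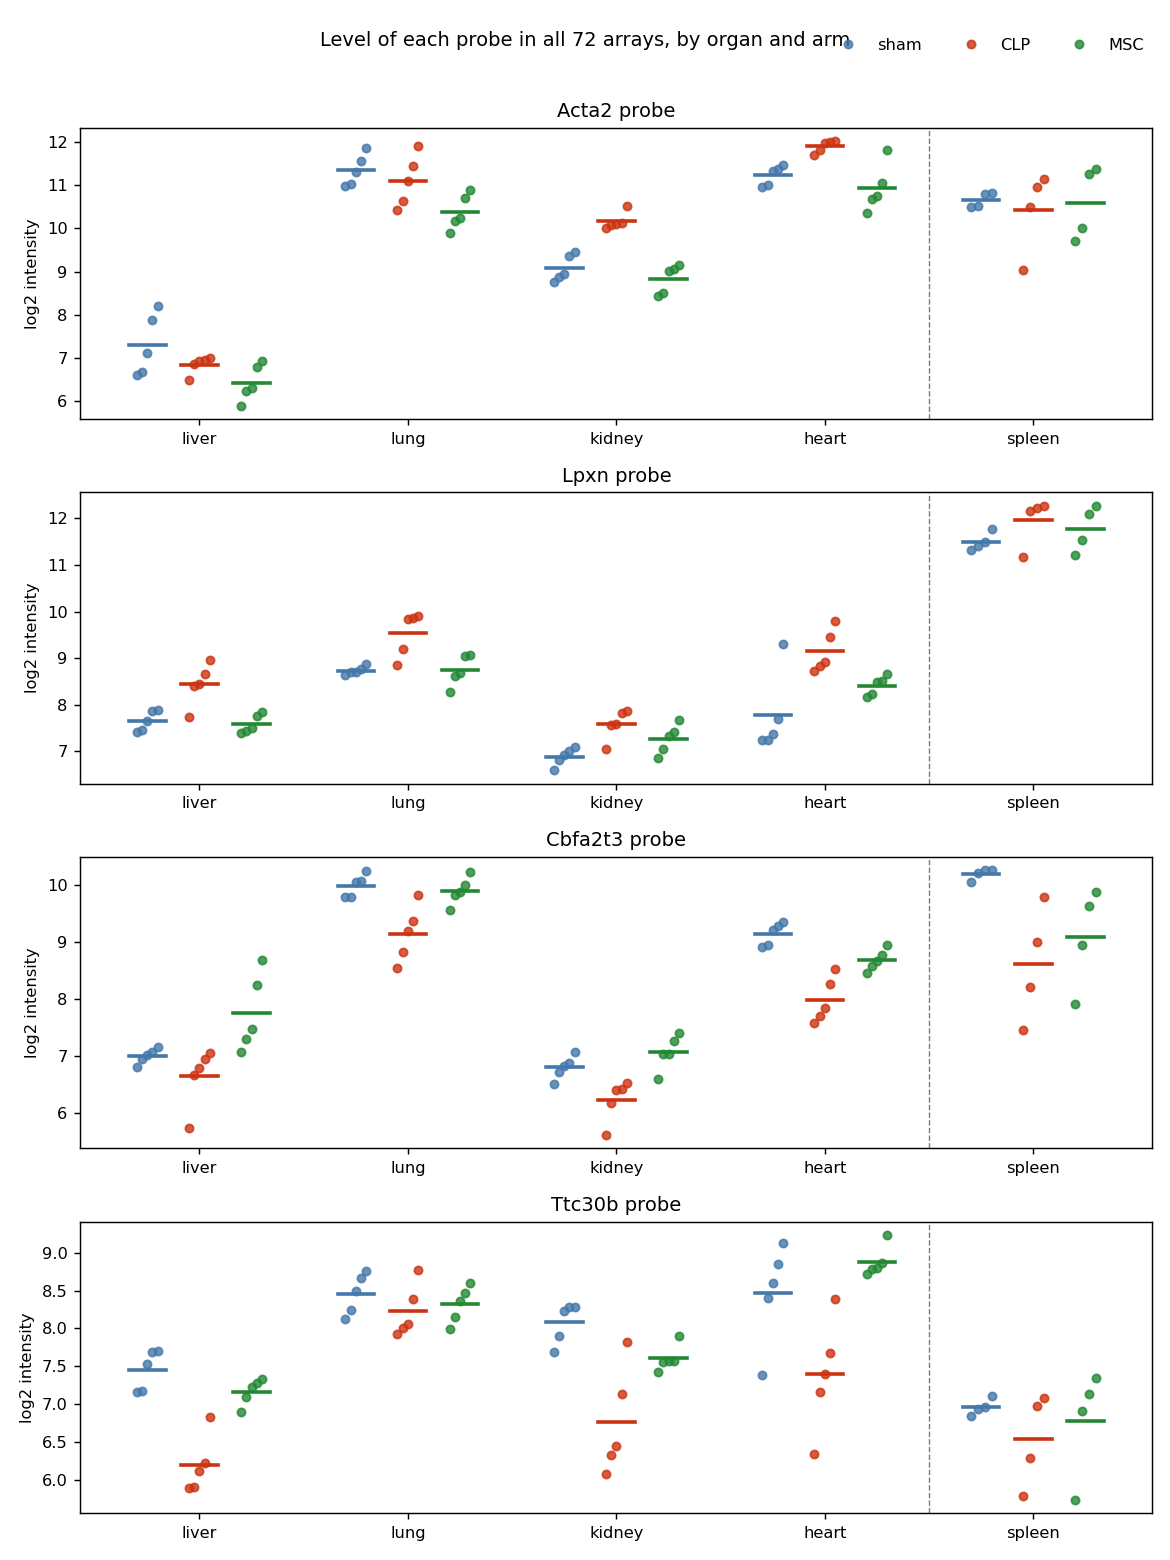
Log2 intensity of each probe (vertical axis) in all 72 arrays, by organ and arm. Points are arrays, 5 per arm in liver, lung, kidney and heart and 4 per arm in spleen, horizontal lines are arm means, and the dashed line parts the spleen, which has a scale of its own. In kidney the 5 CLP points of Acta2, from 10.01 to 10.52, lie above all sham and MSC points.

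Acta2 had 1 profile in kidney and heart and another in lung and liver. In kidney it rose after CLP and lay near sham in MSC mice. Sham kidneys read 8.87, 9.46, 8.77, 9.35 and 8.94, CLP kidneys 10.13, 10.01, 10.11, 10.07 and 10.52, and MSC kidneys 9.01, 8.50, 9.07, 9.14 and 8.44. Every CLP kidney was above every kidney of the other arms. The rise over sham was 1.09 ± 0.17 (SE), or 2.13-fold (limma adjusted p = 0.00102), and MSC against sham was -0.24 ± 0.17 (adjusted p = 0.431). MSC kidneys differed from CLP kidneys by -1.33 ± 0.17, a description.

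In heart the Acta2 probe read 10.95 to 11.46 in sham mice, 11.70 to 12.02 in CLP mice and 10.35 to 11.83 in MSC mice. Sham and CLP hearts did not overlap, and MSC mouse 16, at 11.83, was the only MSC heart above the lowest CLP heart. CLP exceeded sham by 0.67 ± 0.21 (limma adjusted p = 0.0400), and MSC against sham was -0.30 ± 0.21 (adjusted p = 0.560). The heart rise was called only narrowly. It was 0.63 with an adjusted p of 0.148 without the 5 arrays high in lymphocyte markers, and the adjusted p was 0.0886 with no filter on dim probes. It missed the threshold when any of 8 arrays was left out (sham 21, 76 or 77, CLP 24, 34, 35 or 37, or MSC 100), with an adjusted p of up to 0.102, while the difference stayed between 0.61 and 0.73 whichever array was left out.

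In lung and liver the CLP arm did not differ from sham in Acta2 past the threshold, and the MSC arm was below both. Sham lungs read 10.97, 11.86, 11.04, 11.56 and 11.30, CLP lungs 11.10, 10.63, 11.45, 11.90 and 10.42, and MSC lungs 10.70, 9.89, 10.18, 10.90 and 10.25. All MSC lungs were below all sham lungs, while the CLP lungs overlapped both. MSC lungs differed from sham by -0.96 ± 0.26, or 1.95-fold (limma adjusted p = 0.0276), against -0.25 ± 0.26 for CLP (adjusted p = 0.496). Livers read 6.61 to 8.21 in sham, 6.49 to 6.99 in CLP and 5.90 to 6.92 in MSC mice, and the arms overlapped. MSC livers fell by 0.87 ± 0.28 against sham (adjusted p = 0.0403). Their mean of 6.43 was near the 6 log2 of the filter. The lung call was lost without sham 22, 77 or 78 or MSC 44, 61 or 101 (adjusted p up to 0.0779), and the liver call without sham 22, 76 or 78 or MSC 16, 44 or 61 (up to 0.110). Without a filter on dim probes both were lost as well, at 0.0592 in lung and 0.0726 in liver, and in liver the exact permutation test gave p = 0.0556 (two-sided, 5 against 5).

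Averaged over the 4 organs, Acta2 was 9.74 ± 0.30 (SD, n = 5) in sham, 10.004 ± 0.21 in CLP and 9.14 ± 0.26 in MSC mice. The MSC mean differed from sham by -0.59 ± 0.15 (SE) (limma adjusted p = 0.0183), a call that 11.7% of probes passed. Without MSC mouse 44 the difference was -0.55 and the adjusted p 0.0536. The CLP mean was 0.27 ± 0.15 above sham (adjusted p = 0.147), against 50.6% of probes called. This mean joins organs with unlike effects, of which the negative ones, in liver and lung, did not pass the threshold. The effect of CLP on Acta2 ranged from -0.45 in liver to 1.09 in kidney, and the organs differed (F-test of all organ by arm terms in limma, adjusted p = 0.000181, passed by 53.9% of probes).

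The array carries 5 other Acta2 probes, and they did not all move as ILMN_2923445 did. ILMN_1236619 and ILMN_1237242 stayed under 6 log2 in their arm means. The 3 bright ones, ILMN_2693895, ILMN_2710353 and ILMN_2710354, all fell in lung after CLP, with differences of -1.04 ± 0.20, -1.01 ± 0.18 and -1.08 ± 0.19 (limma adjusted p = 0.00126, 0.000863 and 0.000798), where 28.8% of probes changed. MSC lungs differed from CLP lungs by 0.08, 0.04 and -0.01 in these 3 probes, against -0.72 in ILMN_2923445. Against sham, MSC lungs differed in the 3 probes by -0.95, -0.98 and -1.09 (adjusted p = 0.00497, 0.00226 and 0.00142), where 4.89% of probes fell, close to the -0.96 of ILMN_2923445. In kidney the 3 probes were 0.21, 0.25 and 0.17 above sham after CLP and did not pass the threshold (adjusted p = 0.417, 0.311 and 0.530). MSC kidneys lay below CLP kidneys in all 4 probes, at -0.83, -0.81 and -0.79 in the other 3 against -1.33. In heart the same held, at -0.47, -0.41 and -0.41 against -0.97. The probes of this gene thus shared the direction of MSC against CLP in kidney and heart. They differed in the CLP arm of the lung, and in how CLP compared with sham in kidney and heart.

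The probe whose pattern was most like ILMN_2923445 belonged to Actg2, the smooth muscle gamma actin, a close relative of Acta2 in sequence. After subtraction of each organ's mean, the 2 probes correlated at r = 0.79 over the 60 arrays, ahead of the Acta2 probe ILMN_2693895 at 0.69 and Scara3, a scavenger receptor, at 0.67. These arrays share mice and the normalization. Actg2 rose by 1.29 ± 0.31 in kidney after CLP (limma adjusted p = 0.00607), where 16.9% of probes rose, and fell by 1.50 ± 0.24 in lung (adjusted p = 0.000402). In Actg2, MSC kidneys differed from CLP kidneys by -1.99 ± 0.31. All these Actg2 differences, CLP against sham included, are descriptions. Likeness to the Acta2 probe over the 60 arrays, which hold all arms, chose Actg2. Its adjusted p-values carry that choice and are no independent test. No probe sequence was used here, so whether ILMN_2923445 also reads Actg2 was not tested, and its values are uncertain as a measure of Acta2 alone.

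**Figure D2:**
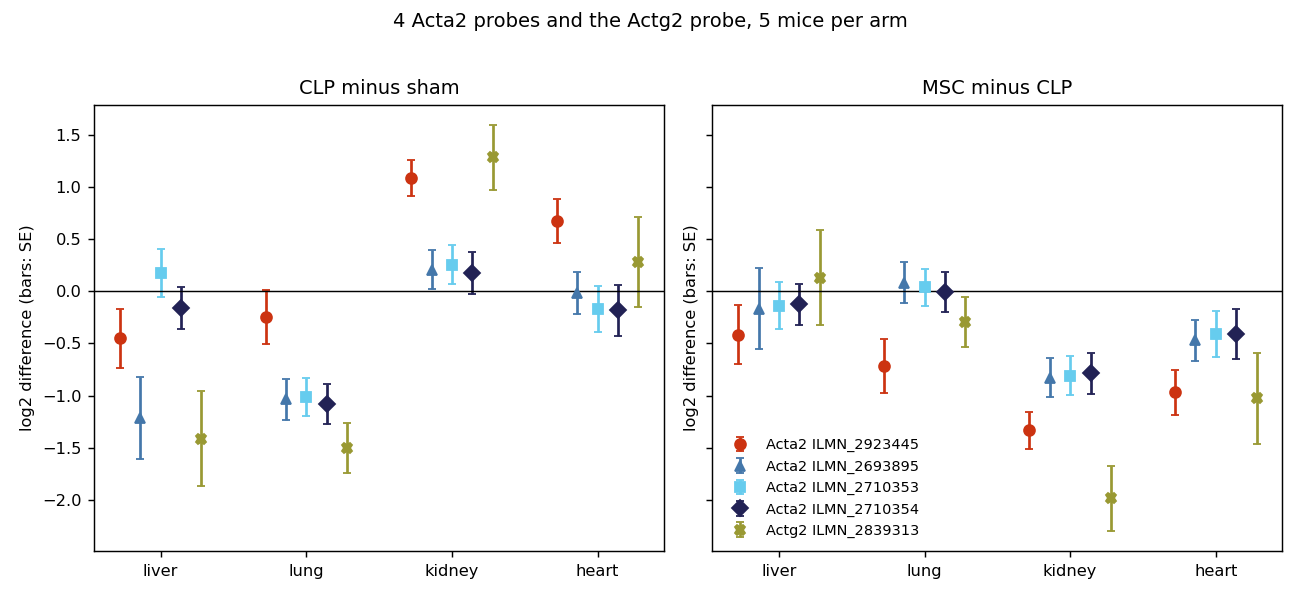
Log2 difference (vertical axis, bars are SE, 5 mice per arm) of the 4 Acta2 probes above background and of the Actg2 probe, by organ. After CLP the 3 other Acta2 probes differed from sham in lung by -1.08 to -1.01 where ILMN_2923445 differed by -0.25, and in kidney MSC lay below CLP in all 5 probes.

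Other smooth muscle contractile genes were listed with the values of the 4 probes already known, and 14 of 14 had a probe. In lung 10 of 11 tested fell after CLP, where 3001 of 20046 probes fell, among them Myl9 (-1.05), Mylk (-1.06), Tpm2 (-0.91) and Tagln (-0.80). The exception was Srf at -0.29 (adjusted p = 0.0845). In kidney 2 of 10 tested rose and 2 fell, where 16.9% of probes rose and 17.0% fell. In heart 0 of 13 rose and 2 fell, where 7.06% of probes rose and 7.75% fell. In liver 2 of 9 rose and 6 fell, where 20.4% of probes rose and 17.5% fell. Over the 4 organs 6 of 9 fell, where 19.0% of probes did. The list's median was -0.31, against 0.03 over all probes tested. The list's median difference between MSC and CLP over the 4 organs was 0.01, against -0.02 over all probes. Infused cells would carry Y-linked transcripts, and of 4 listed genes 3 had a probe. MSC against CLP was -0.08 for Eif2s3y, 0.04 for Kdm5d and 0.11 for Uty over the 4 organs, with mean levels of 5.01 to 6.16 in all arms, too dim there for the test. The stromal markers Col1a1, Col3a1, Pdgfrb and Thy1 overlapped between MSC and CLP mice, at means of 7.85 to 8.47 and 7.83 to 8.74 in heart and 6.62 to 7.24 and 6.40 to 7.17 in kidney. In lung these markers moved with the contractile genes. Their mean was 8.33 to 8.52 in sham, 7.38 to 7.94 in CLP and 7.60 to 8.09 in MSC lungs, so that both injured arms lay wholly below sham. Their part in the lung differences was not tested.

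Lpxn rose after CLP in all 4 organs and was back near sham in liver and lung of MSC mice. Sham livers read 7.65, 7.87, 7.42, 7.46 and 7.89, CLP livers 7.73, 8.96, 8.41, 8.67 and 8.44, and MSC livers 7.85, 7.44, 7.40, 7.76 and 7.51. Only CLP mouse 107, at 7.73, fell into the sham range. The rise was 0.79 ± 0.19, or 1.72-fold (limma adjusted p = 0.00419), and MSC against sham was -0.06 ± 0.19 (adjusted p = 0.853). Lungs behaved alike, at 8.63 to 8.87 in sham, 8.85 to 9.90 in CLP and 8.28 to 9.07 in MSC mice. There CLP exceeded sham by 0.80 ± 0.19 (adjusted p = 0.00567), and MSC differed from sham by 0.01 ± 0.19 (adjusted p = 0.987). CLP mouse 107 again had the lowest CLP value, 8.85.

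In kidney Lpxn read 6.59 to 7.10 in sham, 7.05 to 7.88 in CLP and 6.87 to 7.68 in MSC mice. CLP exceeded sham by 0.69 ± 0.17 (limma adjusted p = 0.00636), while MSC lay between, 0.38 ± 0.17 above sham (adjusted p = 0.205). Over the 4 organs Lpxn averaged 7.77 ± 0.27 (SD, n = 5) in sham, 8.68 ± 0.27 in CLP and 8.00 ± 0.15 in MSC mice. All CLP mice were above all sham mice, while their separation from the MSC mice was a condition of the choice. The CLP rise was 0.91 ± 0.14 (SE; adjusted p = 0.000173), and MSC against sham was 0.24 ± 0.14 (adjusted p = 0.284). The latter passed with array weights, at 0.31 (adjusted p = 0.0400).

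The heart decided less clearly, because of 1 sham array. Sham hearts read 7.38, 7.25, 7.25, 7.70 and, in mouse 78, 9.32, CLP hearts 8.73, 8.92, 8.83, 9.80 and 9.46, and MSC hearts 8.51, 8.16, 8.66, 8.23 and 8.48. Apart from mouse 78, every MSC heart was above every sham heart and below every CLP heart. CLP exceeded sham by 1.37 ± 0.33 (limma adjusted p = 0.0115), and MSC exceeded sham by 0.63 ± 0.33 (adjusted p = 0.401). Without sham mouse 78, MSC exceeded sham by 1.02 (adjusted p = 0.0114), and with array weights by 0.99 (adjusted p = 0.00134). Without all 5 arrays high in lymphocyte markers the difference was 1.05 ± 0.13 (adjusted p = 0.00309), and CLP exceeded sham by 1.53 ± 0.14 (adjusted p = 8.77e-05). The heart of sham mouse 78 had both the highest T cell level, 14.91, and the highest sham level of Lpxn, and the part of these cells in that value was not tested.

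**Figure D3:**
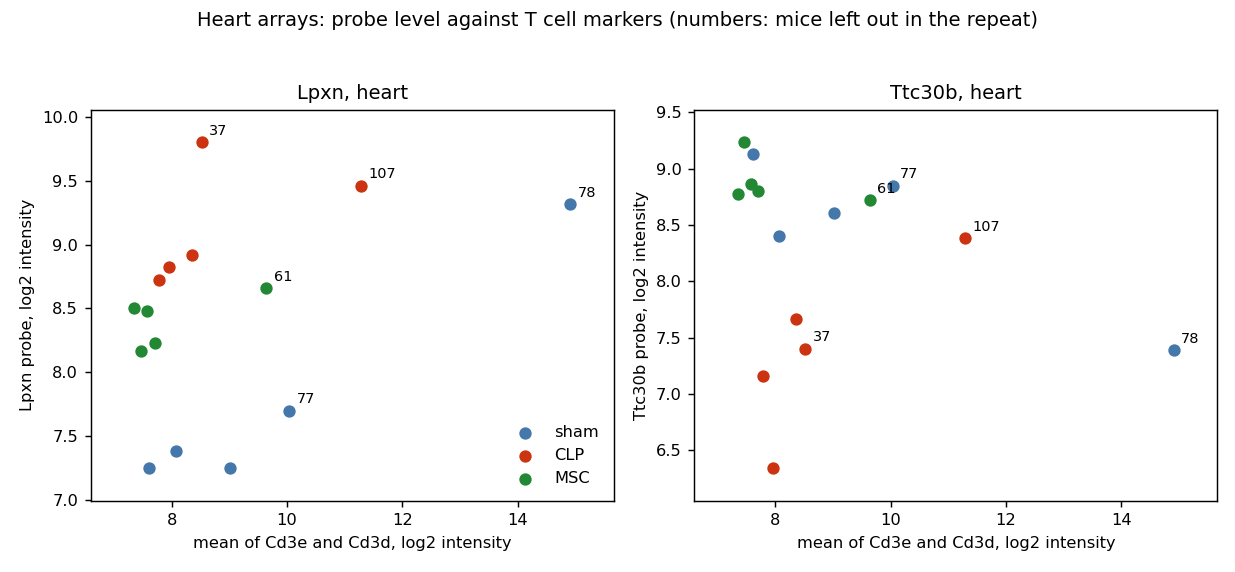
Heart arrays, with the mean of Cd3e and Cd3d on the horizontal axis and the Lpxn or Ttc30b probe on the vertical axis, both in log2 intensity. Colours are arms and numbers name the 5 mice left out in the repeat. Sham mouse 78, at 14.91 on the T cell axis, has the highest Lpxn (9.32) and the lowest Ttc30b (7.39) of the sham hearts.

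Markers of other blood cells moved with CLP as well. Of 6 neutrophil markers 5 had a probe, and all 5 rose over the 4 organs, where 24.6% of probes rose, S100a8 by 2.41 and Camp by 2.02. The list's mean level was 7.75 to 9.16 in sham, 9.55 to 10.99 in CLP and 9.84 to 10.63 in MSC livers. In lung it was 10.80 to 12.09, 12.79 to 13.75 and 12.77 to 13.50 in the same order. The neutrophil markers of MSC mice thus overlapped the CLP range in organs where Lpxn was near sham. MSC against CLP was called for none of the 5, from -0.93 in Mpo (adjusted p = 0.0539) to 0.03 in S100a9. The macrophage genes Adgre1, Csf1r and Marco averaged 9.51 to 9.81, 9.35 to 10.27 and 9.19 to 10.66 in sham, CLP and MSC livers, and overlapped. Singly, all 3 macrophage genes changed in liver after CLP, where 20.4% of probes rose and 17.5% fell. Marco, a scavenger receptor, rose by 2.14, while Csf1r and Adgre1 fell by 0.77 and 1.29 (limma adjusted p = 6.89e-05, 0.00323 and 0.0196). The T cell genes Cd3e and Cd3d both fell in liver, by 0.69 and 0.78, and in lung, by 0.93 and 0.80. Their mean was 8.21 to 8.75 in sham, 7.46 to 7.99 in CLP and 7.41 to 7.70 in MSC livers. In lung it was 10.57 to 11.06, 9.36 to 10.65 and 8.96 to 9.72. The T cell level of MSC mice thus lay below every sham value in both organs. The part of these cells in the Lpxn differences was not tested.

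Relatives and partners of leupaxin were a list made with the 4 probes' values known, and 6 of 9 had a probe. Over the 4 organs 3 of 5 tested rose after CLP, where 24.6% of probes rose. These were Ptpn12, a phosphatase that binds paxillin proteins, by 0.94 ± 0.19, Git1, a scaffold, by 0.42, and Pxn, paxillin itself, by 0.37. MSC against CLP was negative for all 6 and called for none, from -0.60 in Ptpn12 to -0.01 in Ptk2b. The 3 probes most like Lpxn over the 60 arrays belonged to Dtx2 and Ackr1, both at r = 0.80, and to an unnamed probe at 0.80.

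Cbfa2t3 fell after CLP in lung, kidney and heart. Sham lungs read 9.79, 10.25, 9.79, 10.06 and 10.07, CLP lungs 8.82, 9.36, 8.55, 9.20 and 9.82, and MSC lungs 9.87, 10.01, 10.23, 9.83 and 9.56. Only CLP mouse 107, at 9.82, reached the sham range, and the MSC lungs lay within or just below it. CLP differed from sham by -0.84 ± 0.19, or 1.79-fold (limma adjusted p = 0.00404), and MSC against sham was -0.09 ± 0.19 (adjusted p = 0.843). Hearts read 8.91 to 9.35 in sham, 7.58 to 8.53 in CLP and 8.46 to 8.94 in MSC mice. There CLP fell by 1.15 ± 0.18, or 2.22-fold, with no overlap (adjusted p = 0.000799). MSC hearts differed from sham by -0.46 ± 0.18 (adjusted p = 0.211), which passed with array weights (adjusted p = 0.0462) and by the exact permutation test (p = 0.0238, two-sided, 5 against 5). Without the 5 hearts high in lymphocyte markers the difference after CLP was -1.25 ± 0.18 (adjusted p = 0.000940).

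In kidney the Cbfa2t3 probe was dim, at 6.51 to 7.07 in sham, 5.61 to 6.53 in CLP and 6.60 to 7.40 in MSC mice. CLP fell by 0.57 ± 0.18 (limma adjusted p = 0.0199), and MSC against sham was 0.27 ± 0.18 (adjusted p = 0.404). The difference was -0.42 without CLP mouse 24 (adjusted p = 0.0535) and -0.51 without sham mouse 76 (adjusted p = 0.0536). In liver the MSC arm stood highest. Sham livers read 7.07, 6.95, 7.02, 7.16 and 6.81, CLP livers 6.78, 5.74, 7.06, 6.67 and 6.95, and MSC livers 7.30, 7.48, 8.69, 8.24 and 7.06. CLP did not differ from sham past the threshold (-0.36 ± 0.29, adjusted p = 0.330). MSC exceeded sham by 0.75 ± 0.29 (adjusted p = 0.0746), and this passed the threshold without CLP mouse 35 or MSC mouse 100 (adjusted p down to 0.0332). It also passed with only the 2 arms compared (adjusted p = 0.0464), with array weights (0.0213) and by the exact permutation test (p = 0.0238). MSC mice 44 and 16 had the 2 highest values.

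Over the 4 organs Cbfa2t3 averaged 8.23 ± 0.10 (SD, n = 5) in sham, 7.502 ± 0.33 in CLP and 8.35 ± 0.29 in MSC mice. CLP differed from sham by -0.73 ± 0.15 (SE; limma adjusted p = 0.00118) with no overlap, and MSC against sham was 0.12 ± 0.15 (adjusted p = 0.645). Without the liver, the MSC mean differed from sham by -0.0930 (adjusted p = 0.757), so the liver set the side on which it lay. The effect of CLP ranged from -1.15 in heart to -0.36 in liver (organ by arm, limma adjusted p = 0.0461, passed by 53.9% of probes). That call was lost without the 5 heart arrays (adjusted p = 0.131) and without any of 7 mice. Of the 2 other Cbfa2t3 probes, ILMN_2765538 stayed under 6 log2 in its arm means. ILMN_2881486 was near that level and fell by 0.40 ± 0.11 in heart after CLP (adjusted p = 0.0236), where 7.75% of probes fell.

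Genes of the MTG family and the SCL complex, were listed with the 4 probes' values known. Of 9 tested over the 4 organs, 4 rose after CLP and 1 fell, where 24.6% of probes rose and 19.0% fell. Lmo2, a bridging protein of that complex, fell by 0.90 ± 0.17 (limma adjusted p = 0.000696), while Runx1, Tcf12, Tal1 and Gata2 rose by 0.54, 0.42, 0.36 and 0.35. MSC against CLP was called for none of the 9, at 0.23 for Lmo2 and -0.32 for Runx1. The family member Runx1t1 fell in lung by 0.53 ± 0.12 (adjusted p = 0.00331) and was too dim in liver. The probes most like Cbfa2t3 over the 60 arrays were Add1, an actin-capping adducin, at r = 0.75, Glg1 at 0.74 and Tmem109 at 0.73.

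Ttc30b fell in liver, kidney and heart after CLP and hardly differed between arms in lung. Sham livers read 7.17, 7.16, 7.70, 7.53 and 7.68, CLP livers 6.83, 6.11, 5.88, 5.90 and 6.21, and MSC livers 7.09, 7.32, 7.22, 6.89 and 7.27. All CLP livers were below all others, and the lowest, at 5.88, was under the 6 log2 of the filter. CLP differed from sham by -1.26 ± 0.18, or 2.40-fold (limma adjusted p = 0.000115), and MSC against sham was -0.29 ± 0.18 (adjusted p = 0.288). Kidneys read 8.29, 7.69, 8.23, 7.90 and 8.29 in sham, 6.45, 7.81, 7.13, 6.32 and 6.07 in CLP, and 7.43, 7.57, 7.90, 7.56 and 7.57 in MSC mice. Only CLP mouse 107, at 7.81, was in the range of the other arms. In kidney CLP differed from sham by -1.32 ± 0.26, or 2.50-fold (adjusted p = 0.00229), and MSC against sham was -0.47 ± 0.26 (adjusted p = 0.288). The latter passed with only the 2 arms compared (adjusted p = 0.0326) and by the exact permutation test (p = 0.0238, two-sided, 5 against 5).

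In heart Ttc30b read 7.39 to 9.13 in sham, 6.34 to 8.39 in CLP and 8.72 to 9.24 in MSC mice. Every MSC heart was above every CLP heart, and of the sham hearts only mouse 78, at 7.39, was within the CLP range. CLP fell by 1.08 ± 0.34 (limma adjusted p = 0.0364), and MSC exceeded sham by 0.41 ± 0.34 (adjusted p = 0.635). Without the 5 hearts high in lymphocyte markers, CLP differed from sham by -1.66 ± 0.30 (adjusted p = 0.00262) and MSC exceeded sham by 0.21 ± 0.28 (adjusted p = 0.753). The call was lost when any of 8 arrays was left out (sham 21, 22, 76 or 77, CLP 24, 35 or 37, or MSC 101), with an adjusted p of up to 0.100, while the difference stayed between -1.36 and -0.82 whichever array was left out. It was also lost with no filter on dim probes (adjusted p = 0.0712), with only the 2 arms compared (0.0884) and by the exact permutation test (p = 0.0556). Lungs overlapped throughout, at 8.12 to 8.76, 7.93 to 8.78 and 7.99 to 8.61 in sham, CLP and MSC mice. There CLP differed from sham by -0.23 ± 0.17 (adjusted p = 0.316).

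Over the 4 organs Ttc30b averaged 8.11 ± 0.33 (SD, n = 5) in sham, 7.14 ± 0.45 in CLP and 7.99 ± 0.14 in MSC mice. CLP fell by 0.97 ± 0.19 (SE; limma adjusted p = 0.000832), and MSC against sham was -0.12 ± 0.19 (adjusted p = 0.709). CLP mouse 107, at 7.76, was the CLP mouse nearest to sham and lay above sham mouse 78 at 7.59. The effect of CLP ranged from -1.32 in kidney to -0.23 in lung (organ by arm, limma adjusted p = 0.00179, passed by 53.9% of probes). MSC against CLP ranged from 0.09 in lung to 1.49 in heart, a description, and was 1.86 in heart without the 5 heart arrays. The effect of CLP on Lpxn ranged from 0.69 in kidney to 1.37 in heart and did not differ between organs past the threshold (limma adjusted p = 0.200). It did without sham mouse 78 (spread 1.01, adjusted p = 0.00375). Without the 5 heart arrays high in lymphocyte markers, mouse 78 among them, the spread was 0.84 and did not pass (adjusted p = 0.0504).

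Other subunits of the IFT-B complex were listed with the 4 probes' values known, and 17 of 18 had a probe. In kidney 8 of 10 tested fell after CLP, where 17.0% of probes fell, and over the 4 organs 5 of 10 did, where 19.0% of probes fell. In lung 5 of 11 fell, where 15% of probes did. Liver and heart, where Ttc30b fell too, did not share this. In liver 2 of 10 fell and 2 rose, where 17.5% of probes fell and 20.4% rose. In heart 1 of 10 fell, where 7.75% of probes did. Ift172, the large subunit that turns trains at the tip, fell by 1.08 ± 0.23 in kidney (limma adjusted p = 0.00360) and by 0.75 ± 0.14 over the 4 organs. Ift27, a small GTPase, fell by 0.73 ± 0.17 in kidney and by 0.70 ± 0.13 over the 4 organs. For MSC against CLP over the 4 organs, 1 of 10 tested passed the threshold, Ift172 at 0.50 ± 0.14 (adjusted p = 0.0466), where 3.23% of probes rose. The list's median difference was 0.09, against -0.02 over all probes. In lung, where Ttc30b differed little, Ift172 fell by 0.63 ± 0.16 (adjusted p = 0.00870). The near copies Ttc30a1 and Ttc30a2, and the other Ttc30b probe, ILMN_2804996, were too dim for the test. The 3 probes most like Ttc30b over the 60 arrays belonged to Fahd1, Dnajc28 and Zmat1, each at r = 0.86.

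**Figure D4:**
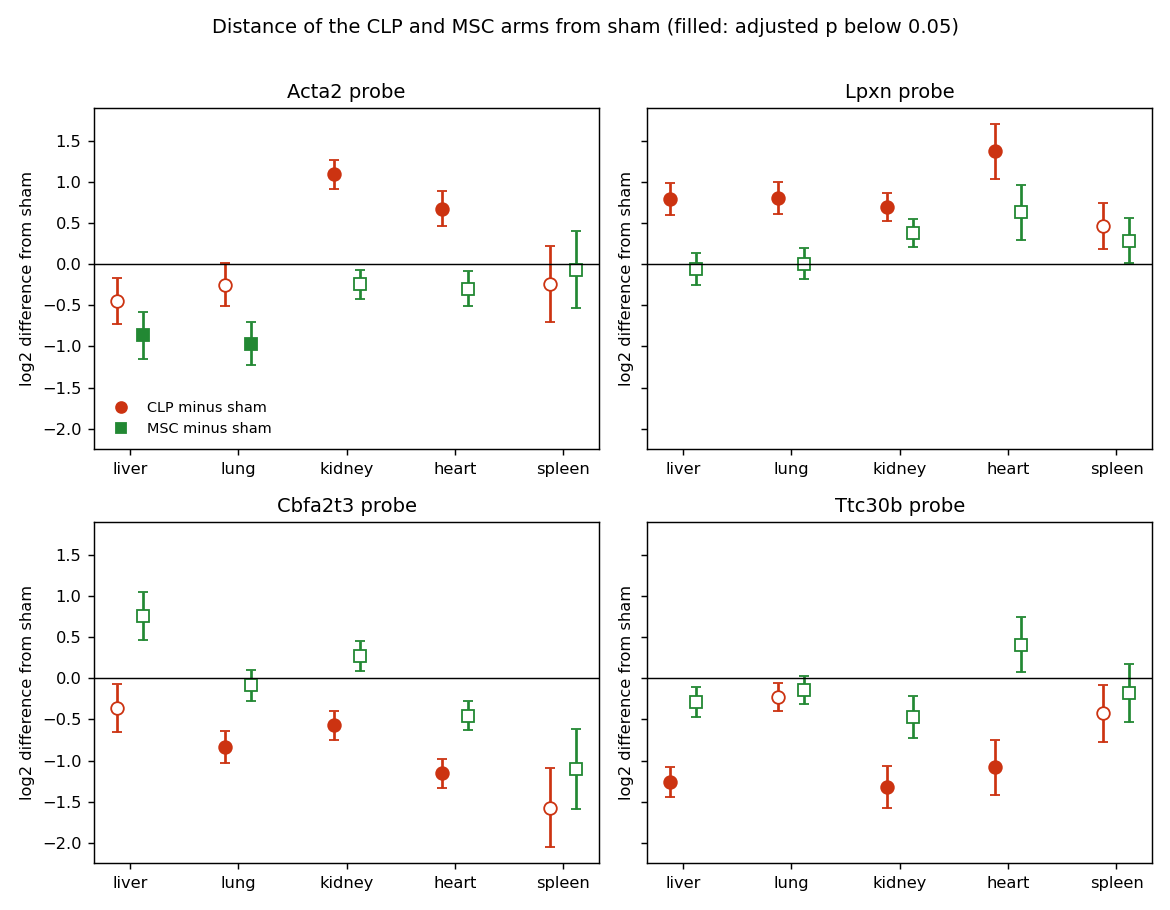
Log2 difference from sham (vertical axis, bars are SE) of the CLP arm (circles) and the MSC arm (squares) for each probe and organ, with 5 mice per arm, or 4 in spleen. Filled symbols passed the threshold. Of the 16 pairs outside the spleen 12 circles and 2 squares are filled, and none is filled in spleen.

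The 4 probes were in part tied to one another across arrays. After subtraction of organ means, Lpxn correlated with Cbfa2t3 at r = -0.65 and with Ttc30b at -0.61 over the 60 arrays. Cbfa2t3 correlated with Ttc30b at 0.48. Acta2 correlated with Cbfa2t3 at -0.47, with Ttc30b at -0.39 and with Lpxn at 0.35. Differences between arms, and several organs of each mouse, enter these values. All were chosen for 1 contrast, so part of this follows from the choice. CLP mouse 107 was the CLP mouse nearest to sham in Cbfa2t3 and Ttc30b over the 4 organs, at 7.89 and 7.76, and shared the lowest CLP value of Lpxn, 8.41, with mouse 34.

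Among sham mice, which did not enter the choice, Lpxn and Cbfa2t3 shared an order of organs, from lung through heart and liver to kidney. Over all probes tested, the 6 pairs of organs were called for 72.7% (liver and lung), 59.9% (liver and kidney), 66.7% (liver and heart), 64.0% (lung and kidney), 57.2% (lung and heart) and 60.1% (kidney and heart). Acta2 was highest in lung (11.35 ± 0.37, SD, n = 5) and heart (11.23 ± 0.23), which did not differ past the threshold (0.12 ± 0.26 SE, limma adjusted p = 0.718). Kidney followed at 9.08 ± 0.31 and liver at 7.30 ± 0.72, which differed (adjusted p = 4.91e-06). Lpxn was highest in lung (8.74 ± 0.09), then in heart (7.78 ± 0.88) and liver (7.66 ± 0.22), which did not differ past the threshold (adjusted p = 0.708), and lowest in kidney (6.89 ± 0.20). Without sham mouse 78 the liver was 0.27 above the heart. The liver's lead over the kidney, 0.77 ± 0.27 (adjusted p = 0.0188), was not called without sham mouse 22, 76 or 77 (adjusted p up to 0.0715).

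Cbfa2t3 was highest in sham lung (9.99 ± 0.20, SD, n = 5), then in heart (9.14 ± 0.20), which differed by 0.85 ± 0.12 SE (limma adjusted p = 5.55e-06). Liver (7.001 ± 0.13) and kidney (6.80 ± 0.21) came last and did not differ past the threshold (adjusted p = 0.180). Ttc30b spanned the narrowest range, with heart at 8.47 ± 0.67, lung at 8.46 ± 0.27, kidney at 8.08 ± 0.27 and liver at 7.45 ± 0.27. Heart, lung and kidney did not differ past the threshold (adjusted p = 0.159 for kidney against heart), and liver differed from kidney by -0.63 ± 0.24 (adjusted p = 0.0276). That call was lost without sham mouse 21, 22 or 77 (adjusted p up to 0.0942). With the mouse as a replicate block, since the organs come from the same animals, kidney differed from heart by -0.40 ± 0.17 and passed (adjusted p = 0.0487). It also passed without sham mouse 78, at -0.57 (adjusted p = 0.00598).

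The spleens did not enter the choice either, and none of the 12 tests of the 4 probes passed there. Over all 11048 probes, CLP against sham was called for 13.5%, MSC against sham for 7.53% and MSC against CLP for 0%, with 428 probes at an unadjusted p below 0.05 by limma. Cbfa2t3 came nearest. Sham spleens read 10.05, 10.26, 10.20 and 10.26, CLP spleens 7.47, 9.80, 8.22 and 8.998, and MSC spleens 9.64, 9.87, 7.91 and 8.95. All sham spleens were above all others, and CLP and MSC spleens overlapped. CLP differed from sham by -1.57 ± 0.48 (limma adjusted p = 0.0504, exact permutation p = 0.0286, two-sided, the smallest that 4 against 4 allows). Without the CLP spleen labelled B, at 9.80 the highest of its arm, the difference was -1.97 (adjusted p = 0.0105), and it also passed without the MSC spleen labelled D (0.0482) or C2 (0.0265). MSC differed from sham by -1.10 ± 0.48 (adjusted p = 0.177) and was 0.47 ± 0.48 above CLP (adjusted p = 0.9999).

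In the other 3 probes the spleen arms overlapped. Ttc30b read 6.84 to 7.11 in sham, 5.78 to 7.08 in CLP and 5.73 to 7.34 in MSC spleens. Lpxn read 11.32 to 11.76, 11.18 to 12.27 and 11.21 to 12.27 in the same order, and without the CLP spleen labelled B, which read 11.18, CLP exceeded sham by 0.72 (limma adjusted p = 0.0385). Acta2 read 10.49 to 10.82, 9.04 to 11.15 and 9.71 to 11.37. MSC against CLP was 0.17 ± 0.47 for Acta2, -0.18 ± 0.28 for Lpxn and 0.25 ± 0.35 for Ttc30b (adjusted p = 0.9999 for each). Each of these differences was smaller than its standard error.

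The spleen labels themselves are in doubt. The study's 2 tables hold the same 12 spleen arrays but name 7 of them differently, and 2 change arm, a sham and an MSC array being exchanged, while the CLP arm holds the same arrays in both. Under the other table's names Cbfa2t3 was 9.88 ± 0.63 (SD, n = 4) in sham, 8.62 ± 1.005 in CLP and 9.40 ± 1.03 in MSC spleens. CLP then differed from sham by -1.26 ± 0.57 (SE; limma adjusted p = 0.359), with overlap, and MSC by -0.47 ± 0.57. Of 21147 probes, 0 passed limma's threshold in any spleen contrast under those names, with 2941 at an unadjusted p below 0.05 for CLP against sham, 957 for MSC against CLP and 729 for MSC against sham. For the 60 other arrays the tables name the same samples.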

How the data were processed

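Mouse RNA of 72 organ samples was hybridised to Illumina bead arrays, and the authors deposited log2 intensity values in a table named as not normalized. Its sorted values were equal to within 0.00225 across the 12 spleen arrays and 0.00352 across the 60 others, so each set had been brought to 1 distribution before deposit. No source used here gives the background step or the normalization. Per the file headers, 22504 of 45255 probes follow the columns, including all 4 described here. The rows of the other 22751 are offset by 12 columns and were taken, as log2 values, from the deposited series matrix, which adds a constant per probe. Arm labels came from the source name, since the tissue entry of many samples disagreed with their other labels. In the spleen 1 column could be matched to its arm only.

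Tests used limma 3.58.1 in R 4.3.3 (lmFit and eBayes, 3 arms in 1 fit per organ) on probes above 6 log2 in at least 5 arrays, or 4 in spleen. P-values were adjusted by the Benjamini-Hochberg method over all probes tested. The planned test of organ differences in MSC against CLP is not given, since that contrast chose the probes. Other probes, gene lists and likeness used the series matrix. For likeness, the 3 probes with the highest Pearson correlation over 25968 probes were named. The 4 probes and all lists were chosen with earlier results of these data known, and the lists of smooth muscle, paxillin, SCL and IFT-B genes after the probes' values were seen. Of the probes 34873 had 1 gene symbol, 18 several and 10364 none in the platform table. Organs of 1 mouse deviated together (mean r of 0.13 to 0.28 over 6826 probes, against -0.07 to -0.03 between mice), and the labels give them the same mouse number. Alternatives were 75th percentile scaling, no filter, 2 arms only, array weights, trend with robust eBayes, the series matrix, exact permutation tests, blocks for the mouse and each array left out. The procedure was tested on simulated data. The number of arrays limits the precision.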

Additional observations from a re-analysis of the deposited data

Results flagged for a closer look

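Single arrays stood apart from the rest of their arm in 5 of 72 groups of 4 or 5 values, the 4-organ means included, against about 1 in 20 by chance. The kidney of CLP mouse 35 read 10.5 in Acta2 where the other 4 read 10.01 to 10.13. The liver of CLP mouse 24 read 6.49 in Acta2, below the 6.87 to 6.99 of the other CLP livers. The heart of sham mouse 78 read 9.32 in Lpxn, above 7.25 to 7.70 in the other sham hearts, and had a T cell marker level of 14.91. The CLP spleen labelled B read 11.2 in Lpxn, below 12.17 to 12.27. The heart of MSC mouse 44 read 9.24 in Ttc30b, above 8.72 to 8.86.

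In 3 cases the organs differed in the effect of CLP by limma's F-test of the organ by arm terms, which 53.9% of all probes tested passed. The effect of CLP on Acta2 differed by 1.54 between liver and kidney, that on Cbfa2t3 by 0.79 between heart and liver, and that on Ttc30b by 1.09 between kidney and lung. The Cbfa2t3 difference was the only one of these that lost its call without the 5 heart arrays high in lymphocyte markers.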

How the results depend on the processing

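Directions turned with array weights, with the series matrix and in means without the liver or the kidney. None of the turned cases was called either way. With array weights, MSC against sham was -0.00768 for Lpxn in lung and, in spleen, -0.0264 for Lpxn and 0.19 for Ttc30b, while MSC against CLP was -0.64 for Acta2 in spleen. With the series matrix, spleen values were -0.0154 for Acta2 (MSC against CLP) and -0.11 for Lpxn (MSC against sham). Without the liver the mean of MSC against sham was -0.0930 for Cbfa2t3, and without the kidney that of CLP against sham was -0.00728 for Acta2. The Acta2 mean of CLP against sham kept its direction and passed without the liver, at 0.51 (limma adjusted p = 0.0115), and without the lung, at 0.44 (0.0209). Cbfa2t3 in spleen, CLP against sham, passed at -1.58 with 75th percentile scaling, -1.69 with array weights and -1.57 with 2 arms, with the label set as a block (0.0445) and by the exact test, which also passed MSC against sham at -1.10. Over the 4 organs, Lpxn passed for MSC against sham with array weights, at 0.31 (limma adjusted p = 0.0400). The Cbfa2t3 organ by arm spread lost its call at 0.79 with the mouse as a random block (0.0636), the series matrix (0.0550) and no filter (0.109), and at 0.89 without the 5 heart arrays (0.131). With the mouse as a replicate block, sham kidney against heart in Ttc30b passed at -0.40 (0.0487), and no other organ call changed. For these the cause was not tested.

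Leaving out 1 array or mouse at a time gave -0.69 to -0.51 for Acta2 over 4 organs (MSC against sham). Spleen ranges for Acta2 were -0.49 to 0.22 (CLP against sham, above zero only without CLP B), -0.28 to 0.47 (MSC against CLP) and -0.33 to 0.23 (MSC against sham). They were -1.97 to -1.19 for Cbfa2t3 and 0.36 to 0.72 for Lpxn (CLP against sham), -0.44 to 0.0101 for Lpxn and -0.000900 to 0.60 for Ttc30b (MSC against CLP), and -0.37 to 0.17 for Ttc30b (MSC against sham). Organ by arm spreads after CLP were 0.66 to 0.98 for Cbfa2t3 and 0.54 to 1.01 for Lpxn. Lpxn in lung (MSC against sham) gave -0.0756 to 0.123, sham liver against heart -0.31 to 0.27, and Ttc30b in sham lung against heart -0.20 to 0.13. A probe near 6 log2, such as Cbfa2t3 in kidney, Acta2 in MSC livers or Ttc30b in CLP livers, has little signal over background.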
